A study of Mus musculus with 2 samples.

Results

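The cells that surround the blood-forming vessels of the mid-gestation mouse were compared between 2 tissues at embryonic day 9.5 (E9.5): the aorta-gonad-mesonephros region (AGM) and the yolk sac. The comparison sums the counts of every E9.5 well that was sorted as VE-cadherin negative and held at least 500 detected genes. These were 354 AGM wells and 305 yolk sac wells, together 659 of the 2954 wells in the deposited tables, and every well of both pools passed that limit. Wild-type C57Bl/6 embryos were dissociated, dead cells were removed with the dye 7AAD, doublets were gated out, and cells were sorted on VE-cadherin, a surface protein of endothelium. Sorted cells were dispensed into the nanowells of an ICELL8 chip, imaged, and processed as single cells, with 1 chip for E9.5 and 1 for E11.5. Control wells received RNA of E14FF mouse embryonic stem cells or no cell. How many embryos entered each sort is not given in the sources used here. The study calls the VE-cadherin-negative cells the microenvironment, a name for whatever the antibody left unmarked and not for a cell type.

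Each tissue was thus 1 pool of cells, so no test across samples was possible and no p-value is given. Values are CPM, a gene's counts scaled to the pool's total outside haemoglobin, and a difference is the log2 ratio of AGM over yolk sac, positive where the AGM pool was higher. The 95% intervals are exact and cover counting error only, not differences between embryos or sorts. In a pool, fewer cells of a type and less RNA per cell cannot be told apart. A pool with 0 counts of a gene was set to 3 counts, which is 1.84 CPM in the AGM pool and 1.23 CPM in the yolk sac pool. The fold is then a bound at that floor, written as at least, and not the end of the 95% interval. That end lies nearer to 0. For Meox1 the log2 value at the floor was 6.17 and the interval began at 5.85.

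As background, the AGM is the part of the embryonic trunk that holds the dorsal aorta, flanked by somites, neural tube, lateral plate and the mesoderm of the early kidney and gonad. The yolk sac lies outside the embryo and has a visceral endoderm that secretes plasma proteins, a mesoderm layer, and the vessels in which the first, primitive red cells form. In the AGM, blood stem cells arise later from the endothelium of the aorta, and signals of the cells around it are studied as their niche.

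Depth differed between the pools. An AGM well held a median of 4396 counts, 4214 of them outside haemoglobin, and 1814 genes, against 12452 counts, 7855 outside haemoglobin, and 2240 genes in a yolk sac well. Summed outside haemoglobin, these came to 1626543 counts in the AGM pool and 2432202 in the yolk sac pool. The sort was as labelled for its own gene: Cdh5, which encodes VE-cadherin, had 15.4 CPM in the AGM pool and 9.46 CPM in the yolk sac pool, a log2 ratio of 0.70 (-0.18 to 1.58), against 561 and 587 CPM in the VE-cadherin-positive pools of the same tissues. Pecam1, an adhesion protein of endothelium and platelets, had 11.7 CPM in the AGM pool and 9.05 CPM in the yolk sac pool. Haemoglobin made up 4.30% of the AGM pool's counts and 37.0% of the yolk sac pool's. Wells without a cell held haemoglobin as well, at 23.1% of the 6452 counts in 48 wells, a median of 124.5 counts per well. The 2 chips share 473 well barcodes, which mark different cells on each chip.

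Of 10067 genes with at least 20 counts over both pools, 1536 (15.3%) were at least 4-fold higher in the AGM pool and 320 (3.18%) at least 4-fold lower. The median log2 ratio over these genes was 0.57, so more than an even share of genes lay on the AGM side, and list medians below are to be read against that value. The split of the calls depends on the scaling. With TMM factors, which centre the bulk of genes, every log2 ratio moves by -0.60, and 984 genes were at least 4-fold higher and 514 lower, so that 65.7% of calls were on the AGM side in place of 82.8%. With haemoglobin left in the totals every ratio moves by 0.60 the other way, and 92.2% of calls were on the AGM side. A ratio between -0.60 and 0.60 therefore has no firm direction, and one between 2.00 and 2.60 is no longer 4-fold under TMM.

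**Figure D1:**
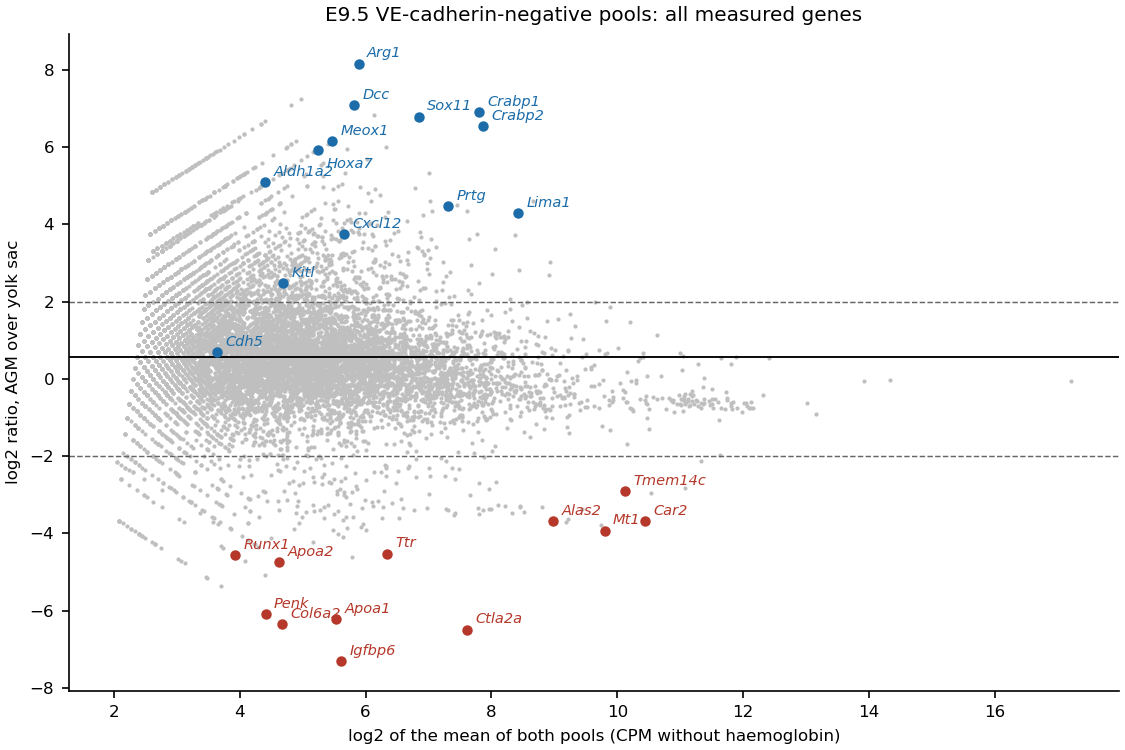
Every measured gene at E9.5, with the log2 of the mean CPM of both pools on the horizontal axis and the log2 ratio of AGM over yolk sac on the vertical axis; dashed lines mark 4-fold and the solid line the median of 0.57. Blue names are genes higher in the AGM pool and red names are lower, and Crabp1 at 6.90 and Ctla2a at -6.49 lie near the upper and lower ends.

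Genes of retinoic acid biology separated the tissues widely. Retinoic acid is made from vitamin A in the trunk mesoderm and patterns the hindbrain, spinal cord and somites through nuclear receptors. Of 15 listed genes, 11 were measured, 8 were at least 4-fold higher in the AGM pool and 1 lower, with a median log2 ratio of 4.39. Several of them passed the limit of 20 counts only through the AGM pool and had to lie on its side. In the yolk sac pool Crabp1 had 9 counts, Rarb 4 and Aldh1a2 0. Crabp1, a binding protein that holds retinoic acid in the cytosol (chr9:54764748-54773110), had 443 CPM in the AGM pool and 3.70 CPM in the yolk sac pool, a log2 ratio of 6.90 (5.97 to 8.04). It had a count in 81.1% of AGM wells and 2.95% of yolk sac wells, although the yolk sac wells were the deeper ones. Crabp2, which carries retinoic acid to its receptors (chr3:87948693-87953372), had 461 CPM in the AGM pool and 4.93 CPM in the yolk sac pool, a log2 ratio of 6.55. Both binding proteins were therefore present across most AGM wells and close to absent from the yolk sac.

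The enzyme that makes retinoic acid in the trunk, Aldh1a2 (chr9:71215789-71296243), had 69 counts in the AGM pool, 42.4 CPM, and none in the yolk sac pool, at least 34.4-fold higher in AGM. Stra6, the uptake receptor for retinol carried in plasma, had 20.3 CPM in the AGM pool and 0.822 CPM in the yolk sac pool. Rdh10, which oxidises retinol, had a log2 ratio of 2.35, which is under 4-fold with TMM. Rbp4, the plasma carrier that brings retinol from liver and yolk sac endoderm, went the other way, with 1.84 CPM in the AGM pool and 30.8 CPM in the yolk sac pool (log2 ratio -4.06). Dhrs3, which reduces retinal back to retinol, had a log2 ratio of 0.02, with 23 counts in the AGM pool and 34 in the yolk sac pool.

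Among the receptors, Rara had a log2 ratio of 4.39 and the shared partner Rxra one of 1.44. Rarb, a receptor whose own gene is a classic target of retinoic acid, had 50.4 CPM in the AGM pool and 1.64 CPM in the yolk sac pool, a log2 ratio of 4.94 (3.53 to 6.85). Its response element is shown because it is the direct-repeat site by which retinoic acid receptors bind DNA. The stretch is chr14:16575506-16575535 of GRCm38.p6 (RefSeq), read on the minus strand from 59 to 30 bases before the start, and capitals mark the motif, GTTCA and AGTTCA with 5 free bases between them.
Rarb: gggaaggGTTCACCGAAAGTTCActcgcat
This motif, sought on both strands of the 250 bases before the start, is in 0.0274% of 32851 RefSeq windows, and of the 8 retinoid genes with a window only Rarb holds it. An annotated exon of Rarb begins upstream of the motif's end. The 30 bases shown were therefore cut around the motif, and exon bases were not left out. A match in a window is a description of its letters and not evidence of binding.

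Hox genes, whose clusters mark levels of the body axis, had few counts in the yolk sac pool. Of 12 listed genes of groups 1 to 4, 3 were measured, and of 18 of groups 5 to 10, 7 were measured; these 10 genes were all at least 4-fold higher in the AGM pool, with list medians of 5.22 and 4.12. Hoxa7 (chr6:52215623-52218573) had 75.6 CPM in the AGM pool and no count in the yolk sac pool, at least 61.3-fold higher in AGM. Hoxb9 had 36.9 CPM in the AGM pool and 0.822 CPM in the yolk sac pool, and Hoxb4 had 30.7 CPM in the AGM pool and 0.822 CPM in the yolk sac pool. Genes with so few yolk sac counts could pass the limit of 20 only through the AGM pool, so these counts describe the measured genes and not the clusters as a whole.

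Genes of tissues that flank the aorta followed. Meox1, a factor of somites (chr11:101877510-101894354), had 88.5 CPM in the AGM pool and no count in the yolk sac pool, at least 71.8-fold higher in AGM. Pax3, a factor of somite, dorsal neural tube and neural crest (chr1:78101267-78197136), had 71.9 CPM in the AGM pool and no count in the yolk sac pool, at least 58.3-fold higher. Somite genes had no count at all in 304 of 305 yolk sac wells and in 125 of 354 AGM wells. Of 15 listed somite genes 4 were measured, with log2 ratios from 4.67 to 6.17. The whole list had 2 yolk sac counts, so these 4 passed the limit of 20 only through the AGM pool and had to lie on its side.

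Of 21 listed genes of neural tube and neurons 11 were measured, with a median log2 ratio of 4.42. The list had 580 counts in the AGM pool and 32 in the yolk sac pool, so most of them were measured through the AGM pool alone and their common direction is not a separate result. Nes, the intermediate filament of neural progenitors, had 99.0 CPM in the AGM pool and 5.76 CPM in the yolk sac pool, and Elavl4, an RNA-binding protein of neurons, had 25.8 CPM in the AGM pool and 1.64 CPM in the yolk sac pool. The same limit holds for the next lists. For neural crest 4 of 11 were measured, led by Sox9 with 33.2 CPM in the AGM pool and 0.411 CPM in the yolk sac pool; Ets1 and Erbb3, at 2.13 and 2.17, are under 4-fold with TMM. For the intermediate mesoderm of kidney and gonad 6 of 11 were measured, among them Eya1 at 6.01, Sall1 at 4.97, Osr1 at 4.62 and Wt1 at 2.58 on the log2 scale. The AGM pool thus carried markers of somite, neural tube, neural crest and kidney mesoderm side by side.

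After thinning every well to 2000 counts outside haemoglobin, 40.1% of AGM wells had at least 1 count of a somite gene, against 0 of 304 yolk sac wells. For genes of neural tube the shares were 44.4% of AGM wells and 3.62% of yolk sac wells.

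Other regulators of the embryonic trunk were higher in the AGM pool too. Of 28 such listed genes, all measured, 22 were at least 4-fold higher and none lower, with a median of 3.51; 18 were so with TMM. Sox11, a factor of progenitors in many embryonic tissues (chr12:27334268-27342718), had 227 CPM in the AGM pool and 2.06 CPM in the yolk sac pool, a log2 ratio of 6.79 (5.55 to 8.42). Meis2, a partner of Hox proteins, had 336 CPM in the AGM pool and 14.8 CPM in the yolk sac pool. Foxp2, a forkhead factor, had 140 CPM in the AGM pool and 1.23 CPM in the yolk sac pool. Nr2f1, an orphan nuclear receptor, had 67.0 CPM in the AGM pool and no count in the yolk sac pool, at least 54.3-fold higher.

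Dach1, a factor of the eye, limb and kidney networks, had a log2 ratio of 6.74. Arg1, the last enzyme of the urea cycle (chr10:24915207-24927470), had 118 CPM in the AGM pool and 0.411 CPM, a single count, in the yolk sac pool, a log2 ratio of 8.17 (5.67 to 13.48), with a count in 41.8% of AGM wells. Spsb4, a SOCS-box protein of ubiquitin ligases, had 62.7 CPM in the AGM pool and no count in the yolk sac pool. Styxl1, a pseudophosphatase, had 62.7 CPM in the AGM pool and 0.411 CPM in the yolk sac pool, but 35.3% of its AGM counts came from 5 wells. Most of the named AGM genes were spread over wells; the dispersion index, which is 1 when wells differ only by counting, was 1.26 for Crabp2, 1.03 for Meox1 and 0.98 for Arg1, and it was 3.48 for Crabp1 and 5.05 for Styxl1.

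Genes of axon guidance and cell adhesion formed a long list on the AGM side: of 32 listed, 28 were measured, 26 were at least 4-fold higher and none lower, with a median of 3.71. Cdh2, N-cadherin, the adhesion protein of neural tube and somites, had 158 CPM in the AGM pool and 2.47 CPM in the yolk sac pool. Efna5, an ephrin ligand, had 255 CPM in the AGM pool and 23.8 CPM in the yolk sac pool. Dcc, a netrin receptor, had 112 CPM in the AGM pool and 0.822 CPM in the yolk sac pool, with 37.9% of its AGM counts in 5 wells and a dispersion index of 8.42. Slit3, a ligand of Robo receptors, and Nrp1, a receptor of semaphorins and VEGF, were not 4-fold apart, at 1.39 and 1.67.

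Signalling genes leaned to the AGM side. Of the ligands studied as niche signals, 11 of 17 were measured, 5 were at least 4-fold higher in the AGM pool and none lower, with a median of 1.86. Cxcl12, the chemokine that retains blood stem cells (chr6:117168535-117181368), had 93.4 CPM in the AGM pool and 6.99 CPM in the yolk sac pool, a log2 ratio of 3.74 (3.01 to 4.56). Kitl, the ligand of the receptor Kit (chr10:100015615-100100416), had 43.7 CPM in the AGM pool and 7.81 CPM in the yolk sac pool, a log2 ratio of 2.48 (1.74 to 3.30), which is under 4-fold with TMM. The growth factors Mdk and Ptn had 832 and 405 CPM in the AGM pool, against 130 and 30.0 CPM in the yolk sac pool. Wnt5a had 20.3 CPM in the AGM pool and 1.23 CPM in the yolk sac pool, while Igf2 had 392 CPM in the AGM pool and 253 CPM in the yolk sac pool.

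In the BMP and TGF-beta list, 19 of 26 genes were measured and 11 were at least 4-fold higher in the AGM pool, or 7 with TMM. Its target genes Id2 and Id3, inhibitors of bHLH factors, had 130 and 94.7 CPM in the AGM pool, against 5.34 and 5.76 CPM in the yolk sac pool. The receptors ranged widely, with log2 ratios of 3.30 for Acvr1, 2.27 for Bmpr1a, 2.20 for Acvr2a, 1.94 for Bmpr2, 1.61 for Tgfbr1 and -1.88 for Tgfbr2, the last being 4-fold lower with TMM. For Wnt signalling, 15 of 25 were measured and 11 were at least 4-fold higher, or 9 with TMM. Lef1, a nuclear effector of the pathway, had 83.0 CPM in the AGM pool and 1.23 CPM in the yolk sac pool, a log2 ratio of 6.07, and Ctnnb1, beta-catenin, had a ratio of 2.20.

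The Hedgehog list had 9 of 13 genes measured and 6 at least 4-fold higher in the AGM pool. The effector Gli3 had 87.3 CPM in the AGM pool and 4.11 CPM in the yolk sac pool, Gli2 a log2 ratio of 3.78 and the transducer Smo one of 3.08, while Ptch1, receptor and target, stood at 1.72. Of the Notch genes 9 of 17 were measured and 6 were at least 4-fold higher, with Notch1 at 3.07, Notch3 at 3.08 and the ligand Jag2 at 4.17; Hes1, a target, stood at 1.75. Of FGF genes 7 of 15 were measured and 4 were at least 4-fold higher, or 2 with TMM, with the feedback phosphatase Dusp6 at 3.58. Across these 5 pathways no measured member was at least 4-fold lower in AGM, apart from 1 gene of the BMP and TGF-beta list under TMM. Several members passed the limit of 20 counts only through the AGM pool and had to lie on its side. Lef1 had 135 counts in the AGM pool and 3 in the yolk sac pool, and Jag2 had 48 and 4. Such genes were also in the lists of niche ligands, trunk regulators and guidance genes above. The common direction of these lists is therefore not a separate result.

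On the yolk sac side stood the red cell genes. Of 26 listed erythroid genes, 25 were measured and 22 were at least 4-fold lower in AGM, with a median log2 ratio of -3.30; 24 were so with TMM. Alas2, the first enzyme of haem synthesis in red cells (chrX:150547417-150570622), had 72.5 CPM in the AGM pool and 936 CPM in the yolk sac pool, a log2 ratio of -3.69 (-3.97 to -3.42). Car2, a carbonic anhydrase of red cells (chr3:14886269-14900770), had 203 CPM in the AGM pool and 2586 CPM in the yolk sac pool, a log2 ratio of -3.67. Smim1, the small membrane protein that carries the Vel blood group in humans (chr4:154020470-154026085), had 83.0 CPM in the AGM pool and 1078 CPM in the yolk sac pool, a log2 ratio of -3.70. Alas2 had a count in 24.9% of AGM wells and in all yolk sac wells.

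Haemoglobin itself, left out of the totals, stood at 44984 CPM of the other counts in the AGM pool and 588125 CPM in the yolk sac pool, a log2 ratio of -3.71 (-3.72 to -3.70). The embryonic chains made up most of it, with Hbb-y at 13433 CPM of the other counts in the AGM pool and 178724 CPM in the yolk sac pool, and log2 ratios of -3.80 for Hbb-bh1 and -3.75 for Hba-x. The copies Hba-a1 and Hba-a2 are almost identical in sequence, so their separate values of -3.63 and -3.61 are uncertain. Alas2, Car2, Smim1 and total haemoglobin thus differed between these pools by nearly the same factor. The genes among them were named for their large differences. In the E9.5 VE-cadherin-positive pools Alas2, Car2 and Smim1 had log2 ratios of 0.27, 0.22 and 0.40, slightly to the AGM side. Between the VE-cadherin-negative pools the 25 measured erythroid genes ranged from -3.88 to -1.37, and the Hbb-b1 rows stood at -2.35 and -2.86. Whether the red cell RNA of the AGM pool came from red cells, from free RNA or from both was not tested.

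The red cell regulators had lower counts. Gata1, the lineage's central factor, had 14.8 CPM in the AGM pool and 132 CPM in the yolk sac pool, and Klf1, an activator of globin genes, had 17.8 CPM in the AGM pool and 96.2 CPM in the yolk sac pool. Epor, the erythropoietin receptor, had 3.69 CPM in the AGM pool and 54.3 CPM in the yolk sac pool. Epb41, a membrane skeleton protein that other cells also make, had a log2 ratio of -1.37, and Tfrc, the transferrin receptor of all dividing cells, one of -1.88.

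Haem synthesis and iron genes gave 12 of 18 measured at least 4-fold lower in AGM, of 19 listed, with a median of -2.75. The enzyme Alad had a log2 ratio of -3.37, and Fth1, ferritin heavy chain, one of -2.81. Alas1, the form of the first enzyme outside red cells, was at 0.93. Alas2 is shown with the bases before its start because the letters bound by GATA factors occur there. The window is chrX:150547167-150547374 of GRCm38.p6 (RefSeq), plus strand, from 250 to 43 bases before the start, with bases of annotated exons left out; capitals mark the motif AGATAA, here read on the reverse strand 86 to 81 bases before the start.
Alas2: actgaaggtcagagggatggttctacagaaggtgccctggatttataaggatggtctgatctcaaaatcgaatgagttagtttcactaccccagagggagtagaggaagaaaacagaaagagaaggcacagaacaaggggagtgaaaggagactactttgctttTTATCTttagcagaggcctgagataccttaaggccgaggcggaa
The motif is in 9.99% of all 32851 windows of 250 bases, both strands searched, and in those of 5 of the 18 erythroid genes that have a window, namely Alas2, Epb42, Epor, Rhd and Trim10. Of the 13 haem synthesis and iron genes with a window 2 hold it, Alas2 and Steap3.

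Set against markers, every yolk sac well carried red cell RNA, which the label of microenvironment does not tell. This was not particular to these wells. Haemoglobin was also 22.2% of the counts of the E9.5 AGM VE-cadherin-positive pool and 17.7% of the yolk sac VE-cadherin-positive pool. Haemoglobin made up from 24.2% to 45.7% of the counts of a yolk sac well, with a median of 38.1%, and from 1.64% to 16.2% in an AGM well, with a median of 4.54%. The 25 erythroid genes took a median of 0.119% of other counts in AGM wells, at most 0.510%, and a median of 1.12% in yolk sac wells, at most 2.32%. All 305 yolk sac wells had counts of 10 or more erythroid genes, with a median of 19, while 17 AGM wells had 10 or more and the median was 4. Thinned to 2000 counts, 40.4% of AGM wells (exact interval 35.2 to 45.7) and all 304 yolk sac wells had at least 3 erythroid genes. Wells without a cell, at a median of 91.5 counts outside haemoglobin, had at least 1 erythroid count in 47.9% of 48 wells.

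**Figure D2:**
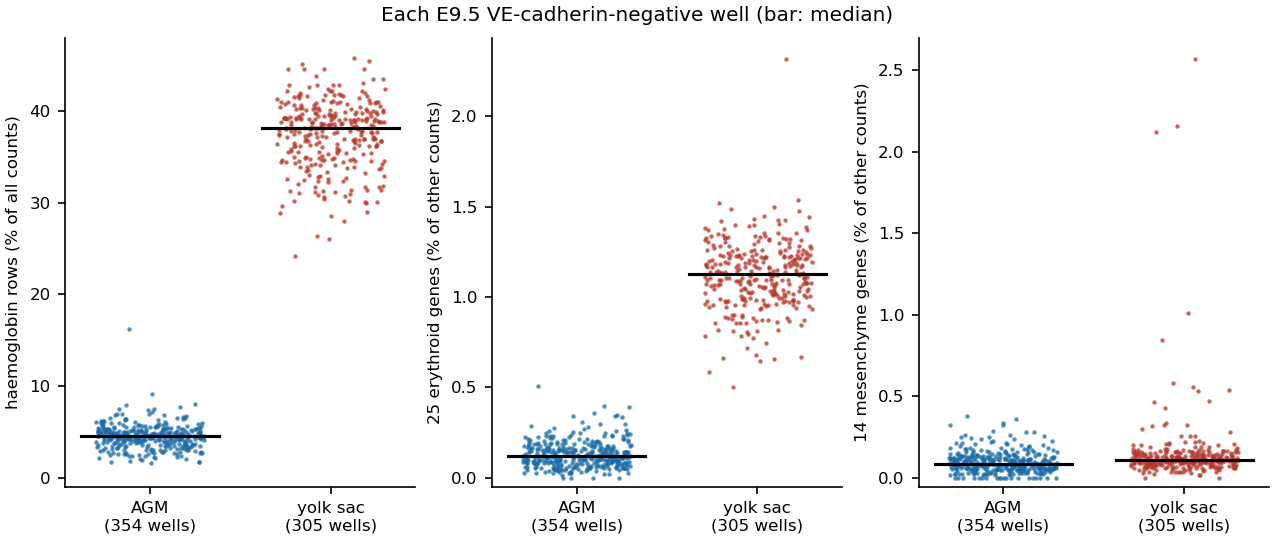
Each point is 1 E9.5 VE-cadherin-negative well, AGM left and yolk sac right, with bars at the medians: haemoglobin as % of all counts, 25 erythroid genes as % of other counts, and 14 mesenchyme genes as % of other counts. The haemoglobin ranges do not overlap, with 16.2% as the highest AGM well and 24.2% as the lowest yolk sac well, whereas the mesenchyme panel shows most yolk sac wells near the AGM wells and a few far above.

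Among yolk sac wells the dispersion index was 1.24 for Alas2, 1.20 for Car2 and 1.39 for Smim1, and 2.31 for the summed counts of all erythroid genes. A sum has more counts per well, and the same relative spread then gives a higher index. Counts may also include copies of 1 molecule, which raises it. These values therefore do not tell whether the wells differed in red cell RNA by more than counting. Over the 2780 yolk sac genes with at least 100 counts the median index was 1.12, and 2.73% of them reached 2; over 2606 AGM genes the median was 1.16 and 4.76% reached 2. What share of the red cell counts in yolk sac wells came from the imaged cell, and what share from free RNA, was not tested.

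Further enzymes and channels stood out on the yolk sac side. Mgst3, a membrane glutathione transferase (chr1:167371966-167393841), had 116 CPM in the AGM pool and 1587 CPM in the yolk sac pool. Aqp3, a channel for water and glycerol found in mouse red cells (chr4:41092724-41098183), had 4.30 CPM in the AGM pool and 106 CPM in the yolk sac pool, a log2 ratio of -4.62 (-5.95 to -3.55).

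The metallothioneins, small proteins that bind zinc and copper, formed a pair. Mt1 (chr8:94178883-94180327) had 110 CPM in the AGM pool and 1672 CPM in the yolk sac pool, a log2 ratio of -3.93 (-4.15 to -3.71), and Mt2 (chr8:94172618-94173567) had 88.5 CPM in the AGM pool and 1096 CPM in the yolk sac pool, a ratio of -3.63. Mt1 had a count in 39.3% of AGM wells and in every yolk sac well. In the E9.5 VE-cadherin-positive pools Mt1 had 1066 CPM in AGM and 978 CPM in yolk sac, and Mt2 had 694 and 602 CPM. The low level was thus that of the AGM VE-cadherin-negative pool. The bases before the start of Mt2 are shown because the factor MTF1 binds metal response elements there in mammals. The window is chr8:94172368-94172617 of GRCm38.p6 (RefSeq), plus strand, and capitals mark 1 match of TGCGCNC and 2 of TGCACNC, the core letters of such elements, which do not overlap one another.
Mt2: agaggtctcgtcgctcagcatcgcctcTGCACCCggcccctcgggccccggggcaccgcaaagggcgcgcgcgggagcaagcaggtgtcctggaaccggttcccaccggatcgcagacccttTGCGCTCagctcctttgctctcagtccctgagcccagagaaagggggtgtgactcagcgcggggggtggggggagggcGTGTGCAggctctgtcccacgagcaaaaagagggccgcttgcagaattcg
These short cores are common, with 12.5% of windows holding TGCGCNC and 10.4% holding TGCACNC on either strand.

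Platelet lineage and early blood genes were on the same side. Of 12 listed megakaryocyte genes, 6 were measured and at least 4-fold lower in AGM, with a median of -3.52; the list had 87 counts in the AGM pool and 1391 in the yolk sac pool, so a gene could be measured through the yolk sac pool alone. Pf4, platelet factor 4, had 28.3 CPM in the AGM pool and 315 CPM in the yolk sac pool, and Itga2b, the integrin CD41 of early blood progenitors and platelets, had 1.23 CPM in the AGM pool and 25.5 CPM in the yolk sac pool. Genes of this list had no count in 280 of 354 AGM wells and in 5 of 305 yolk sac wells, which were deeper; after thinning, 9.89% of AGM wells and 67.8% of yolk sac wells had at least 1. Gfi1b, a repressor of red cell and platelet development (chr2:28609450-28621982), had 10.5 CPM in the AGM pool and 83.1 CPM in the yolk sac pool.

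Runx1, the factor needed for blood to form from endothelium (chr16:92601466-92826074), had 2 counts, 1.23 CPM, in the AGM pool and 71 counts, 29.2 CPM, in the yolk sac pool, a log2 ratio of -4.57 (-7.64 to -2.66). Kit, the receptor of Kitl, leaned the other way, with 17.8 CPM in the AGM pool and 5.76 CPM in the yolk sac pool, a log2 ratio of 1.63 (0.66 to 2.67). Macrophage genes were sparse: 5 of 15 were measured, with the signalling adaptors Fcer1g at -2.50 and Tyrobp at -4.12 and the chemokine receptor Cx3cr1 at 1.71. Endothelial genes were sparse in both pools, with 6 of 16 measured, none 4-fold apart, and 13.3% of AGM wells and 13.5% of yolk sac wells holding at least 1 such count after thinning.

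Genes of the visceral endoderm, the outer layer of the yolk sac, gave 12 of 17 measured at least 4-fold lower in AGM, of 28 listed, with a median of -4.06. Apoa1, the main protein of high-density lipoprotein (chr9:46228630-46230469), had 1.23 CPM in the AGM pool and 91.3 CPM in the yolk sac pool, a log2 ratio of -6.21 (-9.27 to -4.34). Apoa2, a second protein of that particle (chr1:171221564-171226379), had no count in the AGM pool and 49.3 CPM in the yolk sac pool. Ttr, the carrier of thyroid hormone, had 6.76 CPM in the AGM pool and 155 CPM in the yolk sac pool, a log2 ratio of -4.52.

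Cubn, the uptake receptor cubilin, had a log2 ratio of -4.67 and was the only one of 12 measured endocytic genes, of 14 listed, that was 4-fold apart. Dab2, an adaptor of endocytosis, had 49.2 CPM in the AGM pool and 62.1 CPM in the yolk sac pool, and Cited1, a transcriptional cofactor of visceral endoderm, had a ratio of 0.89. Of clotting and plasma proteins 5 of 18 were measured, with F10, coagulation factor X, at -3.33 and Fgb, a fibrinogen chain with 24 yolk sac counts, at a bound of -2.42. F10 had 5 counts in the AGM pool and 75 in the yolk sac pool, so F10 and Fgb were measured only through the yolk sac pool. C3, the central complement protein (chr17:57203967-57228136), had no count in the AGM pool and 23.8 CPM in the yolk sac pool, at least 12.9-fold lower in AGM.

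Visceral endoderm genes had no count in 196 of 354 AGM wells and in only 5 of 305 yolk sac wells, and after thinning 24.6% of AGM wells and 77.0% of yolk sac wells had at least 1. The dispersion index over yolk sac wells was 1.31 for the summed list, 1.34 for Ttr, 1.00 for Apoa1 and 1.02 for Apoa2. Afp, alpha-fetoprotein, had 5.53 CPM in the AGM pool and 94.6 CPM in the yolk sac pool, a log2 ratio of -4.10. Its promoter is shown as the one endoderm window that holds the letters bound by HNF1 factors. The window is chr5:90490464-90490713 of GRCm38.p6 (RefSeq), plus strand, and capitals mark the motif, GTTAAT and ATT with 1 free base between them, 105 to 96 bases before the start.
Afp: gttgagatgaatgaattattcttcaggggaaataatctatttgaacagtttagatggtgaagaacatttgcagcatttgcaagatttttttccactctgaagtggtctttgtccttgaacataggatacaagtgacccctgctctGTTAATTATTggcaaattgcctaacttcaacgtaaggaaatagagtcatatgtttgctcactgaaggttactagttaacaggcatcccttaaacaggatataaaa
Of 16 visceral endoderm genes with a window only Afp holds this motif, and 0.371% of all 32851 windows hold it on either strand.

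Connective tissue genes did not lie on one side. Of 14 mesenchyme genes, all measured, 7 were at least 4-fold lower in AGM and 2 higher, with a median of -1.95. Col1a1, a chain of type I collagen, had 40.6 CPM in the AGM pool and 424 CPM in the yolk sac pool, a log2 ratio of -3.38 (-3.77 to -3.03). Lum and Dcn, small proteoglycans that bind collagen fibrils, stood at -2.93 and -3.49, and Postn, a matricellular protein, at -2.63. Pdgfra, the receptor that marks young mesenchyme, had 117 CPM in the AGM pool and 8.63 CPM in the yolk sac pool, and Vcan, the large proteoglycan versican, had 360 CPM in the AGM pool and 46.9 CPM in the yolk sac pool.

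Collagens divided likewise, with 4 of 18 measured at least 4-fold higher in the AGM pool and 5 lower, of 19 listed. Col2a1, the collagen of notochord and cartilage, had 76.2 CPM in the AGM pool and 1.23 CPM in the yolk sac pool. Col6a2, a chain of the microfibrillar type VI collagen (chr10:76595756-76623630), had 0.615 CPM in the AGM pool and 50.2 CPM in the yolk sac pool. Of 29 listed proteoglycans and glycoproteins, 27 were measured, 8 were at least 4-fold higher and 4 lower, with Gpc6 and Gpc3, cell surface glypicans, at 4.61 and 3.35, Sparc, a collagen-binding glycoprotein, at -2.33, and Fn1, fibronectin, at 0.31, a ratio that TMM turns below 0.

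Much of the yolk sac excess in some of these genes lay in a few wells. The 5 yolk sac wells with the highest share of mesenchyme counts held 237, 266, 146, 92 and 70 such counts, against a median of 9 in the other 300 yolk sac wells. Ctla2a, an inhibitor of cysteine proteases (chr13:60934155-60936625), had 4.30 CPM in the AGM pool and 387 CPM in the yolk sac pool, a log2 ratio of -6.49 (-7.81 to -5.44), with 300 of its 942 yolk sac counts in 1 well and 47.5% in those 5; without the 5 highest wells of each pool the ratio is -5.56. It has a close copy, Ctla2b, so reads may be split between them. Igfbp6, a binding protein for insulin-like growth factors (chr15:102144186-102149512), had 0.615 CPM in the AGM pool and 97.0 CPM in the yolk sac pool, with 64.0% in those 5 wells, and its ratio of -7.30 becomes -5.83 without them.

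Penk, the enkephalin precursor (chr4:4133536-4138815), had 0.615 CPM in the AGM pool and 41.9 CPM in the yolk sac pool, with 64.7% in those wells, and its ratio of -6.09 becomes -4.59. Mgp, matrix Gla protein, had 61.2% there, and Col6a2 40.2%, with a ratio of -6.35 that becomes -5.61. Sparc held 26.2% there and is no longer 4-fold apart without them, at -1.94. Col1a1 was less concentrated, with 17.5% there and a ratio of -3.18 without them. Col6a2 and Col1a1 are among the mesenchyme genes by which these wells were picked, so part of their share there was fixed by that choice. Ctla2a, Igfbp6, Penk, Mgp and Sparc are not among those genes. The choice to leave out these wells was made after their values were seen. The same 5 wells held 24.2%, 26.4%, 30.7%, 39.1% and 31.7% haemoglobin, and erythroid genes at 0.585% to 1.18% of other counts, so they too carried red cell RNA.

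**Figure D3:**
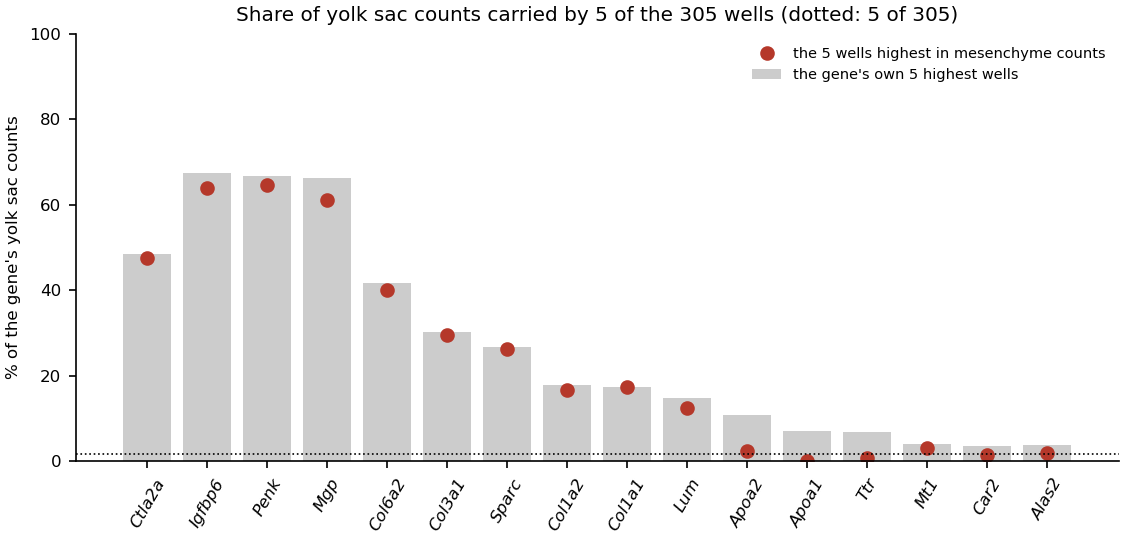
For 16 genes lower in the AGM pool, grey bars give the % of the gene's yolk sac counts in its own 5 highest wells and red points the % in the 5 wells with most mesenchyme counts; the dotted line is 5 of 305 wells. Igfbp6, Penk and Mgp lie above 60% on both measures, while Alas2, Car2, Mt1, Ttr and Apoa1 lie near the dotted line. Col6a2, Col3a1, Col1a2, Col1a1 and Lum are among the mesenchyme genes by which the wells of the red points were picked.

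Of smooth muscle genes 1 of 11 measured was 4-fold apart, Myh11 at -2.51, with 64.7% of its 34 yolk sac counts in 5 wells. The list's calls moved with the setting, to 0 higher and 3 lower with TMM, 2 higher and 0 lower with haemoglobin in the totals, and none after thinning. Acta2, smooth muscle actin, was at 54.1 CPM in the AGM pool and 149 CPM in the yolk sac pool. Factors of lateral plate mesoderm gave 2 of 6 measured at least 4-fold higher in the AGM pool, Tbx3 at 5.01 and Isl1 at 3.58, with the heart and gut mesoderm factors Hand2 at 1.05 and Hand1 at -0.51. In the mesothelium list, Wt1 was higher at 2.58 and Upk3b, a membrane plaque protein of mesothelium, lower at -2.31. Of imprinted growth genes 7 of 17 measured were at least 4-fold higher, or 4 with TMM, led by Peg3 with 865 CPM in the AGM pool and 106 CPM in the yolk sac pool. H19, a non-coding RNA of the Igf2 locus, ran against them, with 844 CPM in the AGM pool and 2071 CPM in the yolk sac pool.

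Lists of general cell functions had 1 or 2 genes 4-fold apart each, set beside the 15.3% higher and 3.18% lower over all measured genes. In lists this short such counts were not read as more or fewer than over all genes. Of 26 cell cycle genes, 2 were at least 4-fold apart, Ccnd2 with 618 CPM in the AGM pool and 46.5 CPM in the yolk sac pool and Ccnd1 at a log2 ratio of 4.20, both D-type cyclins, while Top2a, a topoisomerase of dividing cells, was at 0.09 and Mki67, a marker of dividing cells, at -1.23. Of 18 glycolysis genes, Ldhb at 3.61 and Hk2 at 2.59 were at least 4-fold higher. Of 17 measured cholesterol genes 2 were so, among them the synthesis enzyme Hmgcs1 at 2.54, and none with TMM. Of 13 measured immediate early and stress genes, Jun at 2.18, which is under 4-fold with TMM, and Junb at -2.05 were 4-fold apart. Of 7 measured interferon genes only Bst2, at -2.74, was 4-fold apart.

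Lipid transport genes, several of them also listed for visceral endoderm, had a median of -2.29, with 5 of 9 measured at least 4-fold lower in AGM and 1 higher. Apoa1, Apoa2 and Apom among the lower ones were measured only through the yolk sac pool, so their direction is not a separate result. Of 8 measured epithelial genes Esrp1, a splicing factor of epithelia, was higher at 3.22.

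**Figure D4:**
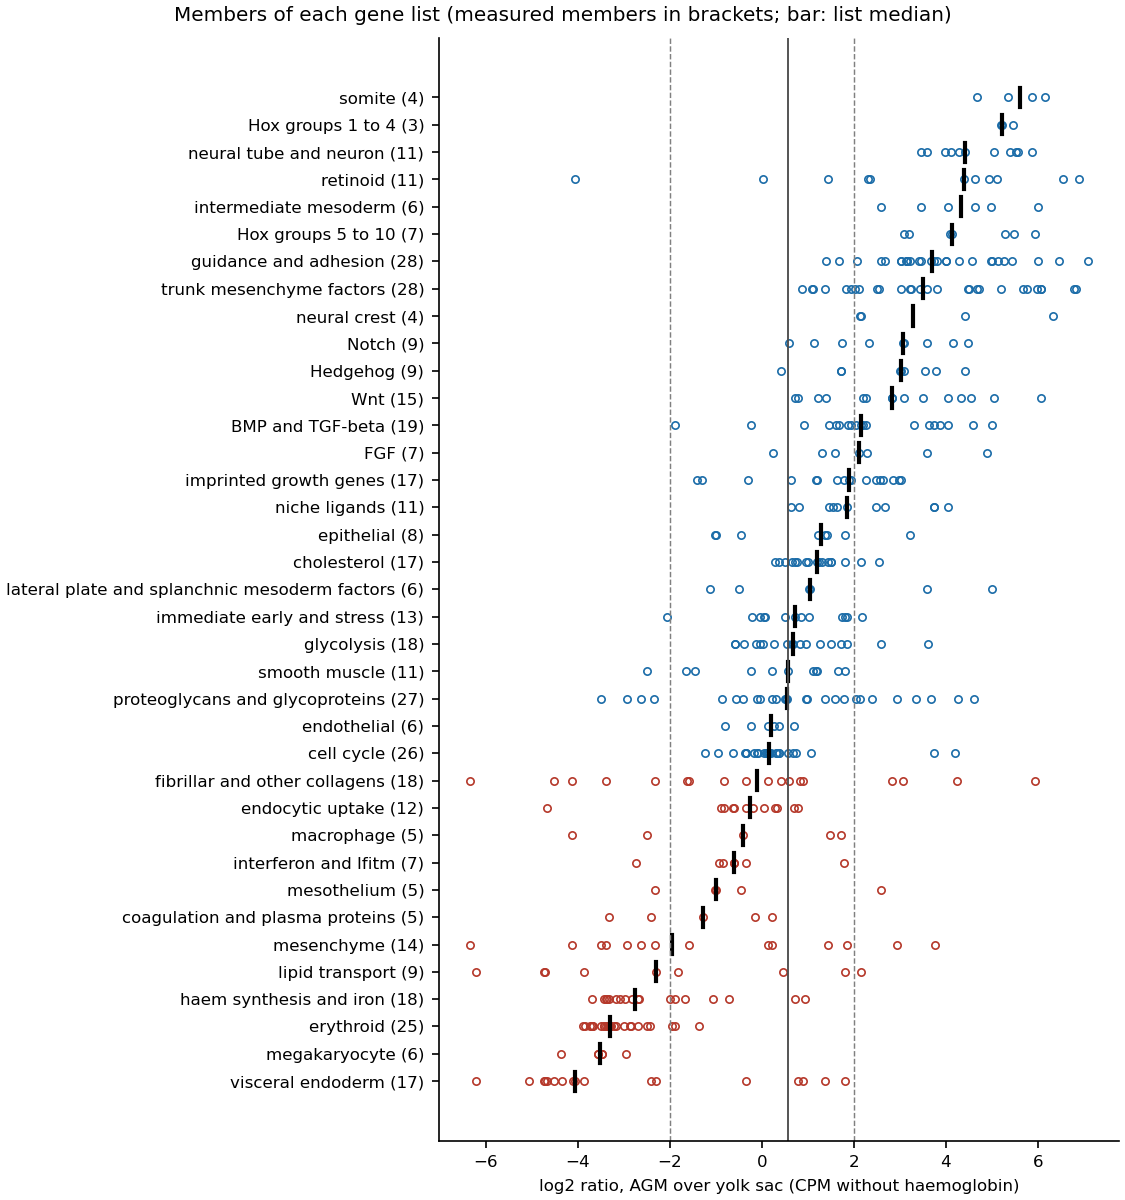
Each open point is a measured gene of a list, on a horizontal axis of log2 ratio of AGM over yolk sac, with the number measured in brackets, a black bar at the list median and dashed lines at 4-fold; the grey line is the median of all measured genes, 0.57. The somite list and both Hox lists stand towards the right, with medians of 5.61, 5.22 and 4.12, and erythroid, megakaryocyte and visceral endoderm lists at the left, with medians of -3.30, -3.52 and -4.06.

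Some differences were seen at E9.5 and were small at E11.5. Each stage was run on its own chip, so stage and chip cannot be told apart, and a difference between stages was not tested. At E11.5 the pools held 1055616 AGM counts and 1094330 yolk sac counts outside haemoglobin, in 338 and 379 wells. Of the 1536 genes at least 4-fold higher in the AGM pool at E9.5, 1231 were measured at E11.5, where 341 (27.7%) were again at least 4-fold higher and 525 (42.6%) were within 2-fold. Of the 320 at least 4-fold lower, 211 were measured, 122 (57.8%) were again at least 4-fold lower and 39 (18.5%) within 2-fold. Over all 8515 genes measured at both stages, 5.32% were at least 4-fold higher and 2.75% lower at E11.5, so both groups held more such genes than the whole.

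Genes kept apart at both stages included Crabp1, with 397 counts in the AGM pool and 12 in the yolk sac pool at E11.5 and a log2 ratio of 5.10 there, and Hoxa7 at 5.59, Nr2f1 at 5.83 and Aldh1a2 at 5.01. On the other side, Alas2 was at -3.66, Mt1 at -3.54, Apoa1 at -4.37 and Afp at -4.03 at E11.5. Sox11 was less far apart at E11.5, at 2.76, as was Cdh2, at 2.24. Arg1 had 5.68 CPM in the E11.5 AGM pool and no count in the yolk sac pool. Igfbp6, which was among the genes most in favour of the yolk sac at E9.5, had 1 count in the AGM pool and 0 in the yolk sac pool at E11.5, and Penk had 15.2 CPM in the AGM pool and 1.83 CPM in the yolk sac pool there.

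Of those 525 and 39 genes within 2-fold at E11.5, 294 higher and 27 lower in AGM at E9.5 met the limits for naming a gene (a symbol, no mitochondrial or ribosomal protein gene, 50 or more counts and 10% or more of wells with a count in the higher E9.5 pool), 321 in all, and the genes named next were drawn from them. Prtg, protogenin, an immunoglobulin-family receptor of the early trunk (chr9:72807274-72917307), had 304 CPM in the AGM pool and 13.6 CPM in the yolk sac pool at E9.5, with a log2 value of 4.48 (interval 3.98 to 5.04). At the later stage it had 38.8 CPM in the AGM pool and 44.8 CPM in the yolk sac pool, a log2 value of -0.21 (-0.84 to 0.42). Igdcc3, a related surface protein (chr9:65141154-65187031), had 253 CPM in the AGM pool and 12.3 CPM in the yolk sac pool at E9.5, and 20.8 CPM in the AGM pool and 19.2 CPM in the yolk sac pool at E11.5. In both genes the AGM level was the one that differed most between the stages.

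Lima1, an actin-binding protein (chr15:99778468-99875477), stood at 4.29 on the log2 scale at E9.5 and at 0.22 at E11.5, with 654 and 196 CPM in the AGM pools and 33.3 and 168 CPM in the yolk sac pools. Pknox2, a homeodomain factor (chr9:36890979-37147342), had 109 CPM in the AGM pool and 6.58 CPM in the yolk sac pool at E9.5, and 136 CPM in the AGM pool and 68.5 CPM in the yolk sac pool at E11.5. Syne2, a protein of the nuclear envelope (chr12:75818318-76110928), and Zfp608, a zinc finger protein, had log2 ratios of 3.84 and 4.03 at E9.5 and of 0.95 and 0.77 at E11.5. In these 4 genes the yolk sac level at E11.5 was above that at E9.5.

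Among the 27 genes of the other direction that met these limits, Runx1 had 22.7 CPM in the AGM pool and 32.0 CPM in the yolk sac pool at E11.5, where its ratio was -0.49 (-1.31 to 0.30), against -4.57 at E9.5. Tmem14c, a mitochondrial membrane protein needed for haem synthesis (chr13:41016250-41022582), had 263 CPM in the AGM pool and 1976 CPM in the yolk sac pool at E9.5, a ratio of -2.91, and 111 CPM in the AGM pool and 219 CPM in the yolk sac pool at E11.5. Gypc, a glycophorin of the red cell membrane, had a ratio of -3.23 at E9.5 and -0.85 at E11.5. Rgs10, a regulator of G-protein signals (chr7:128373621-128419506), Prdx3, a mitochondrial peroxidase (chr19:60864066-60874538), and Arf5, a GTPase of vesicle traffic (chr6:28423604-28426602), had ratios of -2.90, -2.54 and -2.72 at E9.5. Their E11.5 ratios were -0.82, -0.88 and -0.27.

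**Figure D5:**
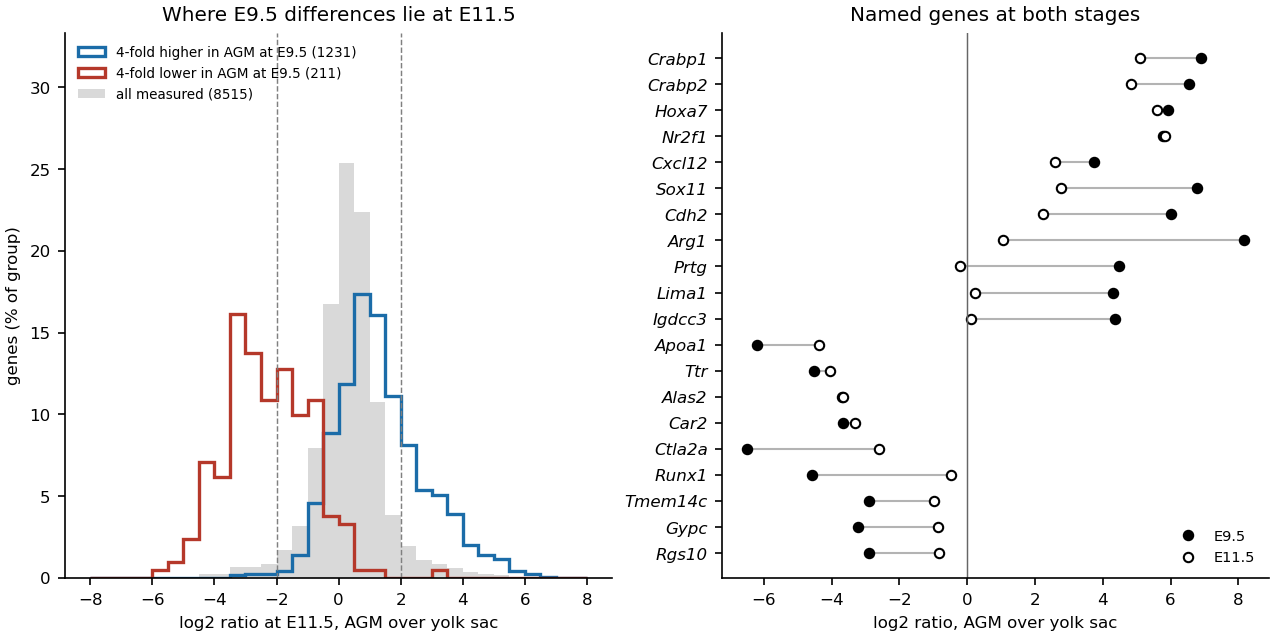
Left, the log2 ratio of AGM over yolk sac at E11.5 for genes at least 4-fold higher (blue, 1231 genes) or lower (red, 211 genes) in the AGM pool at E9.5 and for all 8515 genes measured at both stages (grey), as % of each group; right, 20 named genes at E9.5 (filled) and E11.5 (open). Hoxa7, Nr2f1 and Alas2 keep close points, while Prtg, Lima1, Igdcc3 and Runx1 come near 0 at E11.5.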

How the data were processed

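Deposited were integer counts of each gene in each well, not normalized, and the sorted state of every well. At E9.5 there are 20575 rows of genes for 1378 wells, and at E11.5 there are 20823 rows for 1576 wells. Reads were checked with FastQC, trimmed with cutadapt and mapped with STAR to mm10 (GRCm38), per the submitters' processing notes. Tool versions, the counting program, strand setting, annotation and any use of molecular identifiers are not given in the sources used here, so counts may include copies of 1 molecule, and overlapping, antisense or near-identical genes may share reads. In all, 4068 rows carry an Ensembl ID alone.

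From there, wells with at least 500 genes were summed by state and stage. Totals left out 8 haemoglobin rows. A gene was measured with at least 20 counts over both pools, and called at 4-fold or more. Ratios have exact 95% conditional binomial intervals, shares of wells exact Clopper-Pearson intervals, all for counting error only; a 0 was set to 3 counts per pool, also in list medians. The dispersion index is Pearson's chi-square of a gene over wells, given each well's total outside haemoglobin, divided by wells minus 1. Wells were thinned at random to 2000 counts. Scrublet marked 1 of 1283 E9.5 wells (0.0779%), too few to say that it worked; doublets had been gated out in the sort, and no well was removed. No test across samples was made, since each pool is 1 sample.

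Named were the 15 genes in each direction whose interval bound nearest 0 was farthest from 0, among genes with a symbol that had 50 or more counts and 10% or more of wells with a count in the pool where they were higher, mitochondrial and ribosomal protein genes left out; the 6 in each direction that were at least 4-fold apart at E9.5 and within 2-fold at E11.5; up to 4 called and 2 uncalled members of each of 37 lists; and Cdh5, Pecam1, Runx1, Kit, Gfi1b, Kitl and Cxcl12. Further list members are named as examples chosen after their values were seen, as is Mgp. The comparison, its members and the lists were chosen with earlier results of these data known. Gene positions, by symbol, and promoter windows are those of RefSeq on GRCm38. Annotated exons, left out of the Alas2 window, are those of GENCODE vM21. The summing and calling steps were tested on simulated data. Software was Python 3.11.15 with numpy 2.4.6, pandas 2.3.3, scipy 1.17.1, scanpy 1.11.5 and matplotlib 3.10.9, and edgeR 4.0.16 for TMM factors alone. Alternatives were other cell filters, weights, totals, scaling, thinning, count limits and folds, and wells left out.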

Additional observations from a re-analysis of the deposited data

Results flagged for a closer look

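Several genes and lists lay on opposite sides of 0 at the 2 stages, with AGM over yolk sac log2 ratios given for E9.5 and then E11.5; none of these differences between stages was tested, and stage and chip cannot be told apart. In vessel and matrix genes, Col4a1, a basement membrane collagen, had 0.42 and -2.26, Lamc1, a laminin chain, 0.54 and -1.82, Fn1 0.31 and -1.75, Vim, an intermediate filament of mesenchyme, 1.44 and -0.63, and Cald1, an actin regulator, 1.12 and -0.21. In factors and signals, Hand2 had 1.05 and -2.91, Ets1 2.13 and -0.67, Cited1 0.89 and -2.76, Hes1 1.75 and -1.475, Tcf7l1, a nuclear effector of Wnt signals, 3.10 and -0.39, Slit3 1.39 and -0.35, and Nrp1 1.67 and -1.65. In imprinted genes, Mest had 2.49 and -0.34, Peg10 2.99 and -0.99, and Igf2 0.63 and -1.34. Among other genes, Ctsl, a lysosomal protease, had 0.70 and -0.90, and Hspa8, a chaperone, had -0.21 and 0.67. Mgp had -3.75 and 3.13. Only named genes were screened for this list, so others are missing from it, such as Ddb2 with 2.37 and -2.45. Of the 1231 genes 4-fold higher in AGM at E9.5 and measured at E11.5, 22 were 2-fold to 4-fold lower there and 8 at least 4-fold lower. Of the 211 lower ones, 1 was 2-fold to 4-fold higher there and 1 at least 4-fold higher. Ratios between -0.60 and 0.60 turn with the scaling at E9.5, which touches Col4a1, Lamc1, Fn1, Hspa8 and the medians of smooth muscle and proteoglycan genes. At E11.5 haemoglobin was 3.47% of the AGM pool and 32.9% of the yolk sac pool, so the ratios of Cald1, Mest, Slit3 and Tcf7l1 there, which are as close to 0, have no firm direction either.

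List medians did the same for smooth muscle, 0.56 and -1.22, lateral plate factors, 1.04 and -1.48, proteoglycans and glycoproteins, 0.54 and -0.81, epithelial genes, 1.29 and -2.85, and imprinted genes, 1.89 and -0.54. Some of these medians are over unlike sets, since fewer members were measured at E11.5. They rest on 8 and then 5 epithelial genes, 11 and then 10 smooth muscle genes, and 17 and then 16 imprinted genes. The -0.54 of imprinted genes lies in the range, -0.60 to 0.60, that has no firm direction at E9.5.

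Haemoglobin, which the totals leave out, made up 37.0% of the counts of the E9.5 yolk sac VE-cadherin-negative pool, against 4.30% of the AGM pool; wells without a cell held 23.1%.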

How the results depend on the processing

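No paired analysis was possible because each group is 1 pool with no replicate numbers, and no replicate could be left out. The numbers of genes at least 4-fold higher and lower in AGM, 1536 and 320 with a median of 0.57, were within 1.5 times of that with no cell filter, a limit of 20% mitochondrial counts, stricter wells, equal weight per well, totals without mitochondrial genes, at most 50% haemoglobin, marked wells left out, wells with at least 4 mesenchyme genes (1089 and 296, median 0.50) and 5 wells of each pool left out (1545 and 308, chosen after seeing the data). They moved to 984 and 514 with TMM (median -0.036), 2454 and 208 with haemoglobin in the totals (1.17), 893 and 188 after thinning (6838 genes measured, median 0.47), 441 and 153 at 100 counts (4883 measured, 0.34), 3719 and 466 at 1 count, and 3425 and 769 at 2-fold. Of 136 named genes past 4-fold, 17 were under it with TMM, 8 with haemoglobin totals, 15 after thinning, 7 in wells with mesenchyme genes and 2 without the 5 wells. Fgb alone changed side, at 0.37 after thinning, where it has few counts. Igfbp6 and Runx1 stood at -4.25 and -2.63 after thinning, and Penk at -3.29 in wells with mesenchyme genes. A limit of 20% haemoglobin left 354 AGM wells and 0 yolk sac wells and was not run. Depth limits genes with few counts in either pool, such as Runx1 with 2 in AGM.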
